A study of Mus musculus with 4 samples.

Results

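The genes described here encode the Eph receptors and ephrins, the Slit ligands and their Robo receptors, and the netrins with Dcc, neogenin, the Unc5 receptors and draxin. They were chosen by symbol, as every *Epha*, *Ephb*, *Efna*, *Efnb*, *Slit*, *Robo*, *Ntn*, *Ntng* and *Unc5* gene of the table together with *Dcc*, *Neo1* and *Draxin*, and 42 of the 24421 genes matched. The rule reads names and no measured value. Expression was measured by RNA-seq in GFP+ cells that were sorted from the neural tube of mouse embryos at E11.5, with the genotypes *Prdm13* GFP/+ (the libraries labelled Het) and *Prdm13* GFP/GFP (labelled Homo). Both genotypes carry the same allele, a GFP knock-in within the first exon of *Prdm13* that disrupts the gene, so the control cells also lack 1 intact copy and wild-type cells are not part of the comparison. RNA of 7 GFP/+ embryos made up 1 pool and RNA of 9 GFP/GFP embryos another, and each pool gave 2 libraries. These are technical replicates, so the SDs and p-values below measure the spread of library preparation and sequencing within a pool and none of the variation between embryos.

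Axons find their way by reading cues on cells and in the tissue around them. Slit proteins repel axons through Robo1 and Robo2, while Robo3 is the Robo receptor that allows commissural axons, which cross the ventral midline of the spinal cord, to reach and pass the floor plate. Netrin-1 attracts the same axons through Dcc and repels others through Unc5 receptors, and Eph receptors and ephrins are both held in cell membranes and act where cells touch, in boundaries and in the choice of an axon's path. PRDM13 is a zinc finger protein of the dorsal neural tube, where progenitors give rise to inhibitory and excitatory interneurons, several classes of which send commissural axons. In sorted cells measured in bulk, fewer cells of a type and less RNA per cell cannot be told apart.

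Levels are RPKM, reads per kilobase of exon scaled to the size of the library, as the authors deposited them after TMM normalization, and can be compared between genes because they are per length. A gene was tested when its mean RPKM was at least 1 in either genotype, and it was called when the adjusted p of limma was under 0.05 and the fold was at least 1.5. Fold changes (log2) are GFP/GFP minus GFP/+ on log2(RPKM + 0.1), a scale that understates the change of low genes. The libraries held 11910422 to 18943332 reads on genes, recovered from the steps of the RPKM values. *Prdm13* itself stood at 114 and 127 RPKM in GFP/+ and at 310 and 324 RPKM in GFP/GFP. That value covers every exon, so it cannot tell RNA of the GFP allele from RNA of the intact allele and does not check the loss of the protein. The markers of the sorted lineage differed between the genotypes. For the dorsal inhibitory genes 8 of 8 were called lower (median log2 fold change -2.48). Among them *Lhx1* and *Lhx5* are not particular to inhibitory cells. The paper also uses LHX1/5 without PAX2 to mark dI2 neurons, and reports fewer of these in *Prdm13* mutants at an earlier stage. For the dorsal excitatory genes 6 of 6 were called higher (median 2.26). Of these 6, *Tlx1* passed the filter through GFP/GFP alone, at means of 0.925 and 3.96 RPKM. The authors named all 8 inhibitory genes, and the excitatory ones other than *Prrxl1*, among selected genes that changed in these same libraries. These counts are therefore no independent support. Of the 5 genes of the V0 and ventral list, *Olig1*, *Olig2* and *Dbx1* were called higher, but they passed the filter through GFP/GFP alone, and *Evx1* and *Evx2* did not pass it. None of the 5 progenitor and none of the 5 pan-neuronal genes reached a fold of 1.5, although at an adjusted p under 0.05 *Tubb3* (log2 fold change 0.34), *Elavl4* (0.23), *Elavl3* (0.17) and *Hes5* (0.42) were higher and *Sox2* (-0.48) was lower. All changes below therefore stand beside a large difference in the marker RNA of neuronal types. Whether a shift in cell types has a part in them was not tested.

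Of the 42 guidance genes, 34 passed the filter. In GFP/GFP cells 7 rose (*Ephb1*, *Epha7*, *Robo2*, *Efna3*, *Ntng2*, *Slit1* and *Ntn3*) and 4 fell (*Epha2*, *Robo4*, *Robo3* and *Unc5a*), with the limma call. These 11 are 32.4% of the guidance genes tested, and over all 12046 genes tested 6.33% were called, 3.65% higher and 2.67% lower. At an adjusted p under 0.05 without the fold, 20 of the 34 passed, beside 19.7% of all genes tested, 12 of them higher (9.76% of all genes) and 8 lower (9.95%). The libraries of the genotypes did not overlap for 28 of the 34, against 62.1% of all genes. The median log2 fold change was 0.06 over the 34 and 0.01 over all genes tested, with 18 fitted values above 0 and 16 below. *Robo4* passed the filter through the GFP/+ libraries alone, and 3 genes were called lower when it was left out. The authors had already named *Epha2*, *Robo4* and *Robo3* among selected genes that were down in these same libraries. The calls of these genes are therefore no independent support.

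**Figure D1:**
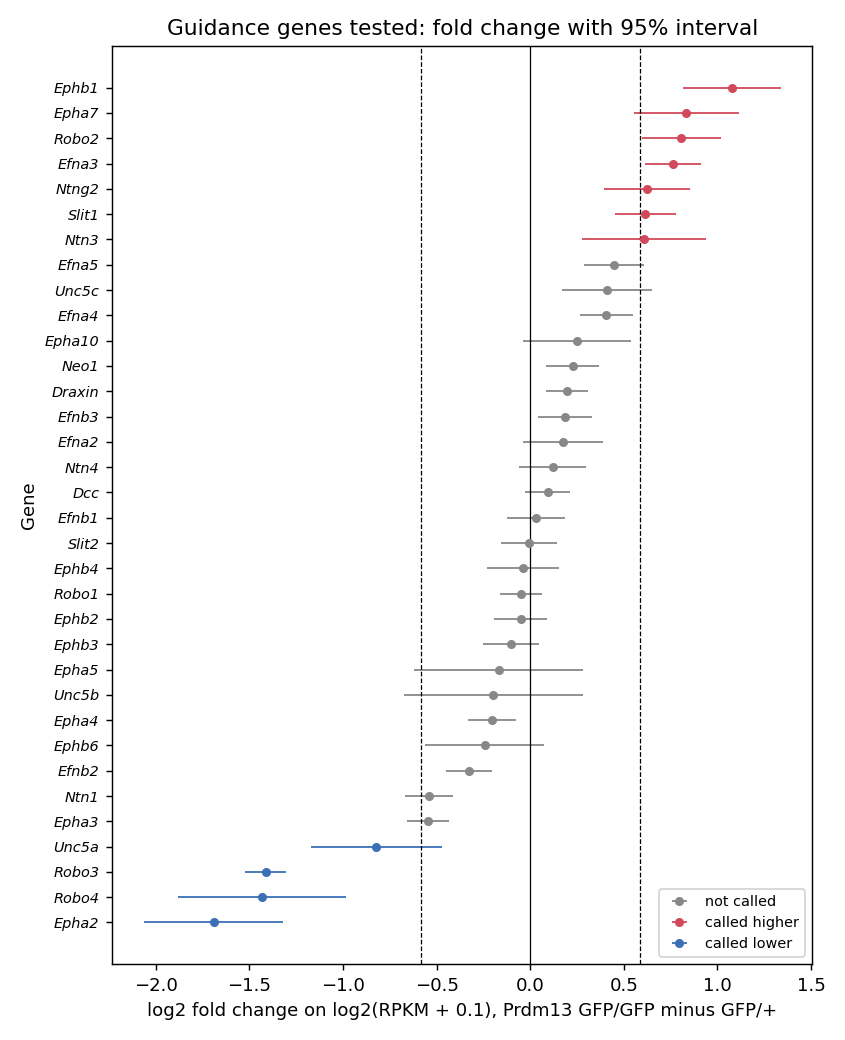
Log2 fold change of the 34 guidance genes tested, GFP/GFP minus GFP/+, on the x axis, with 1 gene a line and its 95% interval from limma as a bar; dashed lines mark a fold of 1.5. The values run from -1.69 for *Epha2* to 1.08 for *Ephb1*, with 4 genes called lower in blue, 7 called higher in red and 23 not called in grey.

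*Robo3*, the commissural receptor, was the most abundant of the 42 genes in both genotypes and carried the largest loss of RNA. It stood at 361 and 377 RPKM in the GFP/+ libraries and at 136 and 141 RPKM in the GFP/GFP libraries, from 19743, 32627, 10455 and 9107 reads. Both mutant libraries lay far below both control libraries, with the libraries of a genotype close together. The mean fell from 369 ± 11.2 to 138 ± 3.41 RPKM (SD, n = 2 libraries of 1 pool), which is 2.66-fold lower. The fitted log2 fold change was -1.41 with an SE of 0.0453, a 95% interval of -1.52 to -1.30 and an adjusted p of 1.16e-05 (limma). Even so *Robo3* remained the highest guidance gene in GFP/GFP.

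Of the Slit receptors *Robo1* and *Robo2*, the latter was called, and it was higher in GFP/GFP. *Robo1*, which keeps axons from re-entering the midline, stood at 40.4 and 40.8 RPKM in GFP/+ and at 39.6 and 38.9 RPKM in GFP/GFP. The mutant libraries were slightly lower, with a log2 fold change of -0.05, a 95% interval of -0.16 to 0.06 and an adjusted p of 0.504. *Robo2*, which acts in the same repulsion, was a low gene that rose, from 3.12 and 2.98 to 5.52 and 5.31 RPKM. Its libraries were well apart, with a log2 fold change of 0.81 (SE 0.0880, adjusted p 0.00186). *Robo1* was thus 13.3 ± 0.557 times as abundant as *Robo2* in GFP/+ and 7.25 ± 0.0998 times in GFP/GFP (SD, n = 2).

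*Robo4*, which is best known from blood vessels, fell from 2.17 and 2.38 to 0.844 and 0.720 RPKM, and both mutant libraries were below both controls. The log2 fold change was -1.43 (SE 0.187, adjusted p 0.00388), from 97 and 168 reads in GFP/+ and 53 and 38 in GFP/GFP. The genes *Robo4* (chr9:37401902-37414023, plus strand) and *Robo3* (chr9:37416045-37433436, minus strand) point towards each other on mouse chromosome 9, with ends 2021 bp apart in RefSeq on GRCm38.p6 and 553 bp apart in GENCODE vM21. *Robo4* stood at 0.602% and 0.630% of the *Robo3* level in GFP/+ and at 0.621% and 0.511% in GFP/GFP, and these ratios overlapped between the genotypes. The exact permutation test of this ratio gave p = 0.667, and with 2 libraries a genotype it cannot go below 0.333. The summed RPKM of 5 endothelial markers was 2.19 and 3.10 in GFP/+ and 3.03 and 3.50 in GFP/GFP. It was not lower with *Robo4*, only 1 of the 5 passed the filter, and it was not called. Whether reads that run past the end of *Robo3* were counted on *Robo4* was not tested, since the strand setting of the counting is not given in the sources used here. Of the other genes nearby, *Msantd2* at 32.1 and 31.7 against 29.9 and 28.8 RPKM had a log2 fold change of -0.12 (adjusted p 0.145). *Esam*, an adhesion gene of endothelial cells and platelets, had one of -0.82 (adjusted p 0.0518) at 2.14 and 2.44 against 0.995 and 1.58 RPKM.

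**Figure D2:**
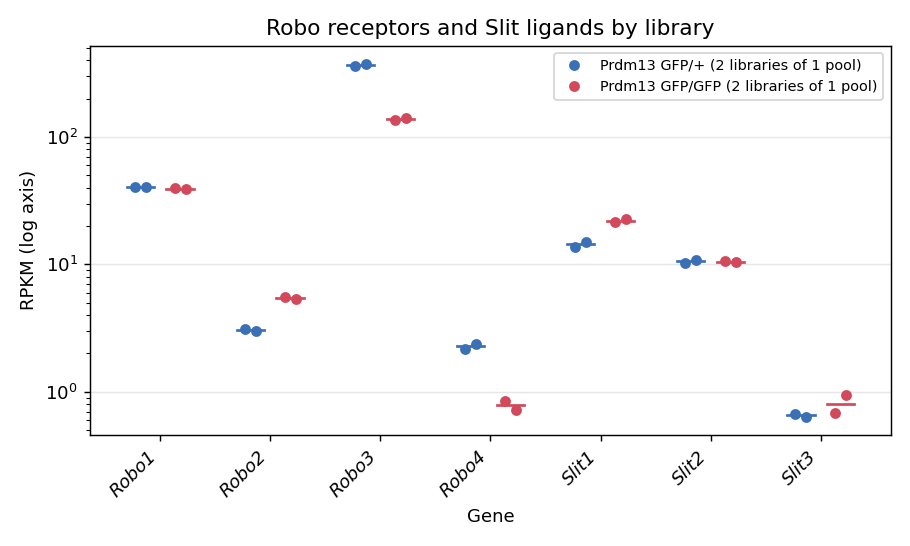
RPKM on a log axis for the 4 Robo receptors and the 3 Slit ligands, with 1 point a library (2 of GFP/+ in blue, 2 of GFP/GFP in red) and a line at each genotype's mean. *Robo3* drops from 369 to 138 and *Robo4* from 2.27 to 0.782, *Robo2* and *Slit1* are higher in GFP/GFP, and *Robo1* and *Slit2*, which were not called, lie close together.

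The summed RPKM of the other 3 Robo genes was 45.9 ± 0.350 in GFP/+ and 45.4 ± 0.735 in GFP/GFP (SD, n = 2), while that of all 4 had means of 415 and 184. *Robo3* made up 88.8% and 89.1% of the summed Robo level in GFP/+, and 74.7% and 75.8% in GFP/GFP. Relative to *Robo1* it was 9.08 ± 0.206 times as abundant in GFP/+ and 3.53 ± 0.132 times in GFP/GFP. With 2 libraries a genotype the exact permutation test of this ratio cannot go below p = 0.333, the value it gave. Over all 42 genes the summed RPKM was 936 ± 28.3 in GFP/+ and 714 ± 7.07 in GFP/GFP, and without *Robo3* it was 567 ± 17.1 and 575 ± 3.67.

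Promoter sequence was read for genes that had an entry in the RefSeq promoter table on GRCm38.p6, which held 37 of the 42. The motif looked for was the E-box CANNTG, which reads the same on both strands and is the site of basic helix-loop-helix factors such as PTF1A of the dorsal neural tube. It occurred in the 250 bases before the start for 19 of 42 guidance gene promoters (some genes have more than 1 start), or 45.2%, and in 66.2% of all 32851 promoters of the table. Among the called genes 7 of 14 promoters held it. A start of *Robo3* is preceded by 2 such motifs, 205 and 78 bases before it, and they are shown because *Robo3* lost the most RPKM of the guidance genes. This window lies inside the span of a longer *Robo3* transcript. The 30 bases around each, on the minus strand at chr9:37433363-37433392 and chr9:37433236-37433265 in that order, have the motif in capitals.
Robo3 motif 1: ggttcagagcaaCATTTGatgagaggagtg
Robo3 motif 2: tgatccgagtggCACCTGctttccgcccgc
CATTTG or its complement CAAATG occurs in 12.0% of all promoters, and CACCTG or CAGGTG in 17.2%, and both are forms of CANNTG. The promoter of *Epha2*, the gene with the largest fold, holds no CANNTG in the same window (chr4:141300971-141301220, plus strand), and that of *Efnb2*, which is also lower in GFP/GFP, holds 1 CACCTG, in capitals (chr8:8661243-8661492, minus strand).
Epha2: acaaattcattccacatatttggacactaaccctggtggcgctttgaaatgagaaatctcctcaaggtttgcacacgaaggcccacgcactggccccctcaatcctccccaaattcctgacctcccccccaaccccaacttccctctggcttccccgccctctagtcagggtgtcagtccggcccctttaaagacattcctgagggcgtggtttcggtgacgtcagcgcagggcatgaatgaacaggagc
Efnb2: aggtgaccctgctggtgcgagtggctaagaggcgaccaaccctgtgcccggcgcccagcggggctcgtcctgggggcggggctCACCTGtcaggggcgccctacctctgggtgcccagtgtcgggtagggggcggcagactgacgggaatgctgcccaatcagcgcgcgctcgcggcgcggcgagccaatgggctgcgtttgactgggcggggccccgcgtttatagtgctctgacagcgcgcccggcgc
*Efnb2* was not called. Of the other guidance genes lower in GFP/GFP at an adjusted p under 0.05 (limma), *Epha3*, *Epha4* and *Unc5a* hold no CANNTG in this window. *Robo4* holds 2, and *Ntn1* had no entry. These matches describe the letters of the windows and say nothing of binding.

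The Slit ligands are secreted proteins that the repulsive Robo receptors bind. *Slit1* rose from 13.7 and 15.1 to 21.5 and 22.6 RPKM, with both mutant libraries above both controls and a log2 fold change of 0.61 (SE 0.0681, adjusted p 0.00198). *Slit2*, a Slit of the floor plate and motor columns, had 10.3 and 10.9 RPKM in GFP/+ and 10.7 and 10.4 RPKM in GFP/GFP. Its libraries overlapped, and the 95% interval of its log2 fold change was -0.15 to 0.14. *Slit2* stood at 0.736 ± 0.0230 times the *Slit1* level in GFP/+ and at 0.479 ± 0.0252 times in GFP/GFP (SD, n = 2). *Slit3* was under the filter, at 0.634 to 0.937 RPKM in the 4 libraries. The call of *Slit1* was lost when GFP/+ library 1 was left out (log2 fold change 0.54) or when GFP/GFP library 2 was (0.58), since its fold lay just past 1.5.

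*Dcc*, the attractive netrin receptor of commissural axons, was second to *Robo3* among the 42 genes in each genotype, and it was not called. It stood at 53.1 and 55.0 RPKM in GFP/+ and at 59.0 and 56.4 RPKM in GFP/GFP. The mutant libraries were slightly higher and did not overlap the controls. The log2 fold change was 0.09 (SE 0.0497) with a 95% interval of -0.03 to 0.21 and an adjusted p of 0.242, from at least 6350 reads in every library. *Robo3* was therefore 6.82 ± 0.0378 times as abundant as *Dcc* in GFP/+ and 2.40 ± 0.135 times in GFP/GFP (SD, n = 2). *Neo1*, the Dcc relative neogenin that also binds repulsive guidance molecules, had means of 24.0 and 28.1 RPKM (log2 fold change 0.23, adjusted p 0.0412), short of the fold asked for.

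The Unc5 receptors, which turn the netrin signal to repulsion, were low and went separate ways. *Unc5a* fell from 4.35 and 4.41 to 2.10 and 2.81 RPKM. The mutant libraries were both lower but differed from each other, and the log2 fold change was -0.82 (SE 0.147, adjusted p 0.0120). Its call was lost when a GFP/+ library was left out, with an adjusted p of 0.0704 without library 1 and 0.0889 without library 2. An exon of *Unc5a* overlaps one of *Hk3* in the annotation, so reads there are uncertain. *Unc5c* had means of 2.74 and 3.68 RPKM with a log2 fold change of 0.41 (adjusted p 0.0338), below the fold asked for, and *Unc5b* means of 1.26 and 1.09 RPKM (adjusted p 0.534). *Unc5d* was under the filter at 0.198 to 0.319 RPKM. *Dcc* stood at 6.22 ± 0.0399 times the summed Unc5 level in GFP/+ and at 7.80 ± 0.886 times in GFP/GFP.

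Among the ligands of this system, *Ntn1*, the netrin that attracts commissural axons, was lower in GFP/GFP, at 14.2 and 14.6 RPKM against 20.8 and 21.2. The libraries were clearly apart, but the log2 fold change of -0.54 (SE 0.0541, adjusted p 0.00136) was just short of a fold of 1.5. *Ntn3* rose from 1.75 and 2.12 to 3.05 and 2.92 RPKM, a log2 fold change of 0.61 (SE 0.138, adjusted p 0.0264). Both mutant libraries were higher, but the call did not hold without GFP/+ library 1 (adjusted p 0.112) or without either GFP/GFP library (0.130 without 1 and 0.135 without 2), and an exon of the gene overlaps *Tbc1d24*. *Ntn4*, a netrin of basement membranes, had means of 10.6 and 11.6 RPKM (adjusted p 0.311). *Ntn5* had no read in GFP/+ and 9 and 6 reads in GFP/GFP, and was under the filter. *Draxin*, a secreted repellent that binds netrin-1 and Dcc, was the third most abundant guidance gene of GFP/GFP, with means of 39.9 and 45.7 RPKM (log2 fold change 0.20, adjusted p 0.0333).

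*Ntng2*, a netrin-G that is anchored in the membrane and does not bind Dcc, rose from 3.41 and 3.89 to 5.59 and 5.74 RPKM. Both mutant libraries lay above both controls, with a log2 fold change of 0.62 (SE 0.0950, adjusted p 0.00666). The call was lost without GFP/+ library 1 (log2 fold change 0.53) and without GFP/GFP library 1 (adjusted p 0.0555) or 2 (0.0848), and an exon overlaps *6530402F18Rik*. *Ntng1* was under the filter at 0.135 to 0.259 RPKM.

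**Figure D3:**
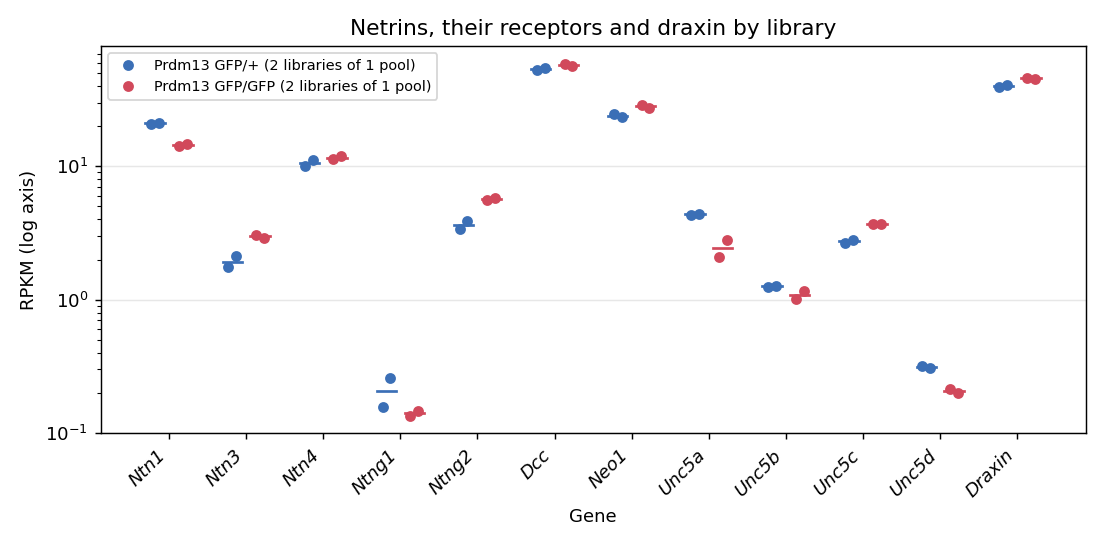
RPKM on a log axis for netrins, netrin-Gs, Dcc, neogenin, the Unc5 receptors and draxin, with 1 point a library (2 of GFP/+ in blue, 2 of GFP/GFP in red) and a line at each genotype's mean; *Ntn5*, at 0 in both GFP/+ libraries, is not drawn. *Dcc* is the highest at 54.1 and 57.7, *Unc5a* and *Ntn1* are lower in GFP/GFP, and *Ntn3* and *Ntng2* are higher.

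Eph receptors of class A bind mainly the ephrin-As, which are anchored by a lipid, and those of class B mainly the ephrin-Bs, which span the membrane. *Epha2* had the largest fold of all the guidance genes. It fell from 4.53 and 4.66 to 1.17 and 1.56 RPKM, from 206 and 336 reads to 75 and 84. Both mutant libraries were far below the controls, 3.36-fold lower in the mean, with a log2 fold change of -1.69 (SE 0.155, 95% interval -2.06 to -1.32, adjusted p 0.000934). *Epha3*, the most abundant class A receptor, was lower in both mutant libraries, at 35.4 and 35.8 RPKM against 51.7 and 52.4, and its log2 fold change of -0.55 (adjusted p 0.000630) was again just short of the fold asked for.

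*Epha7* moved the other way, from 4.19 and 3.33 to 6.81 and 6.67 RPKM. The mutant libraries were both above the controls, and the controls differed from each other more than the mutants did. The log2 fold change was 0.83 (SE 0.118, adjusted p 0.00503), and the call was lost without GFP/GFP library 1 (adjusted p 0.0553) or 2 (0.0718). *Epha4*, a receptor that responds to ephrins of both classes and keeps spinal axons from crossing the midline, had means of 19.7 and 17.1 RPKM with a log2 fold change of -0.20 (adjusted p 0.0401). *Epha5* had means of 1.30 and 1.15 RPKM and *Epha10* means of 5.88 and 6.99 RPKM, with adjusted p of 0.570 and 0.197. *Epha1*, *Epha6* and *Epha8* were under the filter, at no more than 0.639 RPKM in any library. Summed over its 9 genes, class A stood at 87.9 ± 0.867 RPKM in GFP/+ and 69.7 ± 0.620 RPKM in GFP/GFP (SD, n = 2).

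Of the 5 class B receptors 1 was called. *Ephb1* rose from 1.91 and 2.02 to 4.11 and 4.40 RPKM, the largest increase in fold among the guidance genes tested. The libraries were well apart, with a log2 fold change of 1.08 (SE 0.109, 95% interval 0.82 to 1.34, adjusted p 0.00139), from 103 and 173 reads in GFP/+ and 312 and 281 in GFP/GFP. *Ephb2*, the most abundant class B receptor, had 45.2 and 48.3 RPKM in GFP/+ and 43.6 and 46.8 RPKM in GFP/GFP, which overlap, with a 95% interval of -0.19 to 0.09 for the log2 fold change. *Ephb3* (means 12.3 and 11.4 RPKM), *Ephb4* (8.22 and 8.02 RPKM) and *Ephb6*, which lacks kinase activity (5.84 and 4.89 RPKM), had adjusted p of 0.301, 0.778 and 0.246. The summed class B level was 75.1 ± 3.82 RPKM in GFP/+ and 73.7 ± 3.20 RPKM in GFP/GFP, so *Ephb1* remained a small part of it. Exons of *Epha10* and *Ephb4* overlap those of *1700125G02Rik* and *Zan*, so reads there are uncertain.

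Among the ephrin-As, 4 of 5 were tested and all 4 had fitted values above 0, with 3 past an adjusted p of 0.05. *Efna3* rose from 10.8 and 10.2 to 17.5 and 18.2 RPKM. Its mutant libraries were clearly above the controls, with a log2 fold change of 0.76 (SE 0.0618, adjusted p 0.000527). *Efna4* stood at 8.93 and 9.06 RPKM against 11.8 and 12.1 (log2 fold change 0.41, adjusted p 0.00561) and *Efna5* means of 7.23 and 9.88 RPKM (0.45, adjusted p 0.00636), both below the fold asked for. *Efna2* had means of 24.8 and 27.9 RPKM, and its libraries overlapped (adjusted p 0.227). *Efna3* and *Efna4* are neighbours on mouse chromosome 3, 10424 bp apart in GENCODE vM21 and on the same strand. *Efna1*, 32756 bp from *Efna3* in the same annotation, was under the filter at 0.562 to 0.665 RPKM. The summed ephrin-A level was 52.1 ± 2.51 RPKM in GFP/+ and 68.1 ± 2.15 RPKM in GFP/GFP. *Efna2* was the largest part of the sum, at 47.5% in GFP/+ and 40.9% in GFP/GFP. *Efna3*, the 1 ephrin-A called, made up 20.1% and 26.2%. These sums and shares were not tested.

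The ephrin-Bs were together the most abundant family of guidance ligands and none was called. *Efnb2* stood at 47.5 and 48.3 RPKM in GFP/+ and at 39.2 and 37.2 RPKM in GFP/GFP. Both mutant libraries were lower, with a log2 fold change of -0.33 (SE 0.0507, adjusted p 0.00709), which is below the fold asked for. *Efnb1* (means 41.5 and 42.3 RPKM) overlapped between the genotypes, with a 95% interval of -0.12 to 0.18, and *Efnb3* (means 26.5 and 30.2 RPKM) had an adjusted p of 0.0798. The summed ephrin-B level was 116 ± 4.91 RPKM in GFP/+ and 111 ± 0.914 RPKM in GFP/GFP.

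**Figure D4:**
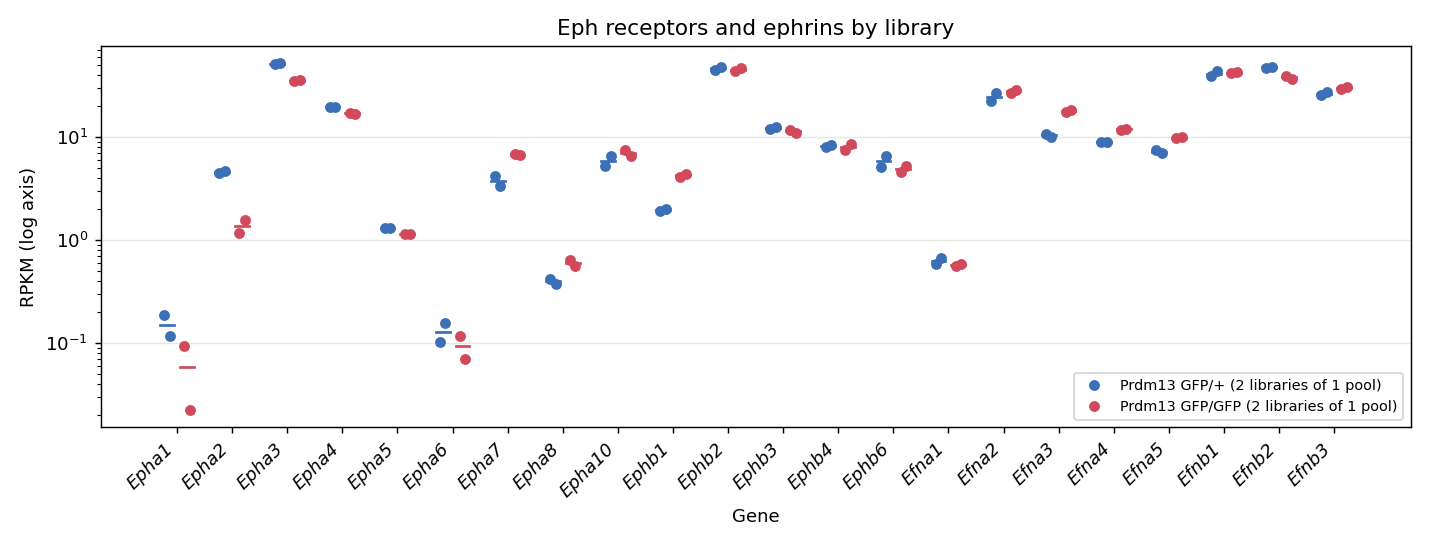
RPKM on a log axis for the 14 Eph receptors and 8 ephrins, with 1 point a library (2 of GFP/+ in blue, 2 of GFP/GFP in red) and a line at each genotype's mean. *Epha2* drops from 4.60 to 1.37, *Ephb1*, *Epha7* and *Efna3* are higher in GFP/GFP, and the abundant *Ephb2* and *Efnb1* overlap between the genotypes.

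Genes that work with these receptors were taken from a list of 85 partners of the Slit-Robo, netrin and Eph pathways and of commissural axons. Of the 72 tested, 4 rose and 3 fell, or 9.72%, which is nearer to the 6.33% of all genes than the share among the receptors and ligands themselves, and their median log2 fold change was 0.06. Of the 7, *Lhx2* and *Lrrc4c* passed the filter only through the genotype in which they were high, and without such genes 3 partners rose and 2 fell. *Nell2*, a secreted ligand of Robo3, rose from 58.0 and 55.6 to 94.1 and 96.6 RPKM, a log2 fold change of 0.75 (SE 0.0474, adjusted p 0.000191). In the sorted GFP/GFP cells as a whole, *Nell2* was thus higher and *Robo3* lower. The *Nell2* libraries did not overlap between the genotypes, which held for 62.1% of all genes tested. Bulk RNA cannot show whether both genes changed in the same cells, and a link between them was not tested.

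*Trim9*, a ubiquitin ligase that binds Dcc, rose from 4.50 and 4.65 to 7.28 and 6.85 RPKM (log2 fold change 0.62, adjusted p 0.00327). The axonal adhesion gene *L1cam* rose from 16.4 and 17.5 to 25.9 and 25.4 RPKM (0.59, adjusted p 0.00110). Both lay just past the fold asked for, and the call was lost for *Trim9* without GFP/GFP library 1 (0.57) and for *L1cam* without that library (0.58) or GFP/+ library 1 (0.55). *Lhx2*, a transcription factor of the dI1 commissural neurons, rose from 0.643 and 0.658 to 1.37 and 1.53 RPKM (1.05, adjusted p 0.0228), and its call was lost without GFP/+ library 1 (adjusted p 0.0513) or GFP/GFP library 1 (0.0775) or 2 (0.0988). The other 4 dI1 markers, all under the filter, summed to 1.35 and 1.30 RPKM in GFP/GFP, lower than in either GFP/+ library (at most 1.95 RPKM). *Cdon*, a co-receptor for Sonic hedgehog, which also draws commissural axons, fell from 16.6 and 17.4 to 8.81 and 8.49 RPKM (-0.97, SE 0.0607, adjusted p 0.000182). *Boc*, its relative in the same role, was lower at means of 67.0 and 49.5 RPKM but short of the fold (-0.44, adjusted p 0.00242). *Flrt3*, a membrane protein that binds Unc5 and Robo1, fell from a mean of 6.16 RPKM to 4.19 and 3.92 RPKM (-0.59, adjusted p 0.00496), a call that was lost without GFP/+ library 1 (-0.56) or GFP/GFP library 2 (-0.55, adjusted p 0.0639). *Lrrc4c*, the receptor of netrin-G1, fell from 1.48 and 1.71 to 0.811 and 0.696 RPKM (-0.99, adjusted p 0.0241), and leaving out any 1 library ended its call, with adjusted p of 0.0544 to 0.0941. *Nell2* and *Cdon* kept their calls whichever library was left out. None of the 17 tested partners of the Eph and ephrin pathway was called.

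Markers of other cells that the sort could hold were summed by list. The summed RPKM of 4 floor plate genes was 0.830 and 0.940 in GFP/+ and 1.58 and 1.64 in GFP/GFP. Of these genes only *Spon1* passed the filter, through GFP/GFP alone (means 0.691 and 1.14 RPKM). It was not called (adjusted p 0.114, limma). The sum of 4 motor neuron genes was 1.24 and 1.24 RPKM against 0.735 and 0.831, and none passed the filter. The 5 mesenchymal genes summed to between 2.14 and 3.41 RPKM, and none passed the filter. The 4 genes of neural crest and glia summed to 12.2 and 15.2 RPKM in GFP/+ and 6.90 and 7.27 in GFP/GFP, mostly from *Foxd3*, which was called lower. The 4 erythroid genes summed to 24.1 and 26.5 RPKM in GFP/+ and 28.8 and 27.1 in GFP/GFP, nearly all of it from *Hbb-y*, and none was called. The 5 genes of dorsal root ganglia summed to 5.82 and 5.47 RPKM against 8.90 and 9.57, with 1 called in each direction. The part of these cells in the changes of low guidance genes such as *Epha2*, *Robo4* and *Unc5a* was not tested.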

How the data were processed

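RNA-seq of GFP+ cells from E11.5 neural tubes was taken from 4 libraries, 2 of each genotype, grouped by their labels. The authors aligned reads to mm10 with TopHat2 2.1.0, counted them on the exons of RefSeq genes with featureCounts, applied TMM in edgeR 3.6.8 and deposited RPKM for 24421 genes. The strand setting is not given in the sources used here. The RPKM were used as deposited. Whole reads were recovered for 99.9% of 19200 genes above 0 (tolerance 0.003 reads) by solving for exon lengths and library sizes. Of 18226 genes with an annotated length, 72.2% had a solved length within 5% of it. Read numbers of the others are less certain, among them *Robo4*, with 3860 bases solved and 4952 annotated. The 12046 genes whose mean RPKM reached 1 in at least 1 of the genotypes entered a linear model of log2(RPKM + 0.1) in limma 3.58.1 under R 4.3.3 (lmFit, then eBayes with its trend option). Tests were two-sided, p-values were adjusted by Benjamini-Hochberg over these genes, and the script was checked on simulated data. Sums and ratios of levels were computed per library in Python 3.11.15 using pandas 2.3.3, numpy 2.4.6 and scipy 1.17.1. Plots were made in matplotlib 3.10.9. Values in each library are given for *Robo3*, *Dcc*, genes called and all but 1 of the partners called. Several others (*Ntn1*, *Epha3*, *Efnb2*, the neighbours of *Robo3*) were chosen after their values were seen. Coordinates and promoters are those of RefSeq on GRCm38.p6. The genes and lists were chosen with earlier results of these data known. Alternatives were other pseudocounts, filters, scalings and limma settings, the replicate number as a block and leaving out each library. They included voom on recovered reads. The count without *Robo4* and that of partners that passed the filter in both genotypes were added after seeing the data.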

Additional observations from a re-analysis of the deposited data

How the results depend on the processing

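Over 15 alternatives, 467 of 510 recomputed values kept their direction and side of the threshold, 36 lost a call or moved and 7 turned direction. Without a filter on low RPKM no guidance gene was called in either direction (0 higher, 0 lower), with an adjusted p of 0.0509 for *Robo3* at the same log2 fold change of -1.41. All tested genes then gave 30 calls higher and 14 lower, and partners 0 and 0, while the median log2 fold change of the guidance genes was 0.013. Under the limma treat test, which asks for a fold above 1.5 itself, 0 guidance genes were called higher and 2 lower (*Robo3* and *Epha2*), 0 partners higher and 1 lower, and 131 and 77 of all genes. With a pseudocount of 1, 4 guidance genes were called higher, and 1 partner in each direction. Quantile normalization gave a median of 0.035. Leaving out 1 library gave 3 to 7 guidance genes higher and 3 to 4 lower, 1 to 4 partners higher and 1 to 2 lower, 258 to 437 of all genes higher and 212 to 266 lower, and a median of -0.00055 to 0.11. The fewest guidance genes, 3, were called higher without GFP/GFP library 2, and 4 without GFP/+ library 1 or GFP/GFP library 1. Values that turned direction were all near 0: *Slit2* with quantile normalization (0.014) and without GFP/+ library 2 (0.034) or GFP/GFP library 2 (0.011), *Efnb1* with quantile normalization (-0.0028) and without GFP/+ library 1 (-0.047), and, without GFP/GFP library 1, *Ephb4* (0.051) and *Ephb2* (7.08e-05). On leaving out 1 library they ran from -0.043 to 0.034 for *Slit2*, -0.126 to 0.051 for *Ephb4* and -0.102 to 7.08e-05 for *Ephb2*. The cause of these shifts was not tested. Same-numbered libraries share only a number (correlation of their deviations 0.0475), and with the replicate number as a block 7 guidance genes were called higher and 4 lower, with 459 and 342 of all genes. With 2 libraries of 1 pool a genotype, differences between embryos are not measured, and calls of genes near 1 RPKM rest on few reads.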
